A study of Mus musculus with 3 samples.

Results

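The genes of retinoic acid synthesis and response are 9 genes, Aldh1a1, Aldh1a2, Aldh1a3, Stra6, Crabp1, Crabp2, Rara, Rarb and Cyp26b1, out of 27745 gene names on a whole mouse genome array. They were taken by gene name from the non-control rows of the scanner files. The set was chosen by its ratios of Eif4g3 siRNA over control siRNA, since Aldh1a3 had been seen to be higher in light and heavy polysomes, so the ratios of all 9 genes below are descriptions. Stromal cells, the non-blood cells that build the framework of a lymph node, were cultured from BALB/c mice and received 400 pmol of siRNA against Eif4g3 or of a control siRNA. The product of Eif4g3, eIF4GII, is one of the scaffold proteins that start translation. The medium was changed at 24 h, and 48 h after transfection 7 plates per siRNA were pooled, lysed and spun through a 10% to 60% sucrose gradient. RNA from each gradient was pooled into a top fraction, which holds mRNA free of ribosomes or nearly so, a light polysome fraction with few ribosomes per mRNA, and a heavy polysome fraction with many.

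Each fraction was hybridised to 1 array. The Eif4g3 siRNA sample carried the red dye Cy5 and the control siRNA sample the green dye Cy3 every time, from 200 ng of RNA each. There was 1 pool of cells per siRNA and no dye swap, so no replicate error exists, no test between the siRNAs was possible, and an effect of the dye on a gene cannot be told apart from an effect of the siRNA. Likewise an effect of the array and one of the fraction cannot be told apart. The lymph node the cells came from and the sex and age of the mice are not given in the sources used here. A ratio is the log2 of Eif4g3 siRNA over control siRNA signal, and the error beside it is the scanner software's error for the spot, computed for the software's own ratio. A difference of 2-fold is a log2 ratio of 1 or -1. A probe is measured when it is well above background in both channels.

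All-trans retinoic acid is made from vitamin A in 2 steps. Retinol taken up through receptors such as Stra6 is oxidised to retinal, and the retinaldehyde dehydrogenases Aldh1a1, Aldh1a2 and Aldh1a3 oxidise retinal to retinoic acid, a step that cannot be undone. Cellular binding proteins (Crabp1 and Crabp2) carry it, nuclear receptors such as Rara and Rarb bind it on DNA and switch genes on, and Cyp26 enzymes break it down. In lymph nodes draining the gut, stromal cells and dendritic cells make retinoic acid, which directs lymphocytes to home to the gut.

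The targeted gene was lower on all 3 arrays: Eif4g3 had ratios of -0.43 ± 0.16, -1.06 ± 0.16 and -1.77 ± 0.19 in the top, light and heavy fractions. Of the probes 34.8%, 50.2% and 51.6% were measured in the top, light and heavy fractions, and the top array was the dimmest. Before normalization the upper quartile of raw signal was 78.3, 725 and 407 for Eif4g3 siRNA in the top, light and heavy fractions. For control siRNA it was 67.2, 313 and 1100, so the channels of the light and heavy arrays were far apart. Of the fibroblastic stromal markers, 10 or 11 of 13 on the array were measured in each fraction, but Cxcl13 and Madcam1 in none. Of 7 endothelial markers 0, 1 and 2 were measured in the top, light and heavy fractions, of 9 leukocyte and dendritic cell markers 1, 3 and 3. Pecam1, Cdh5, Ptprc and Itgax were not well above background in any fraction. The summed signal of the leukocyte list ran from 644 to 675 in the Eif4g3 siRNA and from 661 to 680 in the control channel, and that of the endothelial list from 456 to 473 in the Eif4g3 siRNA and from 463 to 477 in the control channel. Of 3 epithelial markers at most 1 (Krt18) was measured, and of 5 smooth muscle and pericyte markers 2, 3 and 3, among them Acta2.

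The 9 genes were represented by 11 probes, of which 10 were printed once and 1, of Rarb, 10 times. In the top fraction 6 of the genes were measured and in each polysome fraction 7, and 5 were measured on all 3 arrays.

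Among the synthesis enzymes, Aldh1a3 was the gene with the most signal after Eif4g3 siRNA relative to control. Its measured probe lies on the minus strand of chromosome 7 from 66269849 to 66269908 (mm8, as are all probe positions here). The normalized signal of that probe, which includes an offset of 50 added against background noise, in Eif4g3 siRNA cells was 1053, 1694 and 1880 in the top, light and heavy fractions, against 659, 589 and 823 in control cells. After normalization the siRNA channel was the higher one in all 3 fractions. On the heavy array its raw signal was the lower one, 2884 against 3293 in the control channel. The ratios were 0.68 ± 0.23, 1.52 ± 0.25 and 1.19 ± 0.23, which is 1.60-fold, 2.88-fold and 2.28-fold. The light value was the 5th highest of 14094 genes and the heavy value the 31st of 14402. Along the gradient, the log2 light over top signal of Aldh1a3 was 0.69 in Eif4g3 siRNA cells and -0.16 in control cells, but 3.39 and 2.54 when arrays were scaled on their medians, so only the gap between the siRNAs can be read. That gap, the light minus top difference of the ratios, was 0.85 ± 0.34. The heavy minus top difference was 0.52 ± 0.33 here and 0.17 with the software's ratio. By the software's ratio the top and light values lay closer together, at 1.09 and 1.60. With an offset of 0 they were 0.94 and 1.56, closer too.

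The heavy value of Aldh1a3 lay near the 2-fold line, at 0.98 without loess normalization. By the software's own ratio all 3 fractions passed it (1.09, 1.60 and 1.26). A second Aldh1a3 probe, designed on a partial cDNA and placed 18.1 kb from the first (66287971 to 66288030), was not well above background in either channel of any array. Its raw signal was 48.4 in the siRNA and 34.6 in the control channel of the light array, over local backgrounds of 39.0 and 23.0. The result for Aldh1a3 therefore rests on 1 probe and 1 spot per array.

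**Figure D1:**
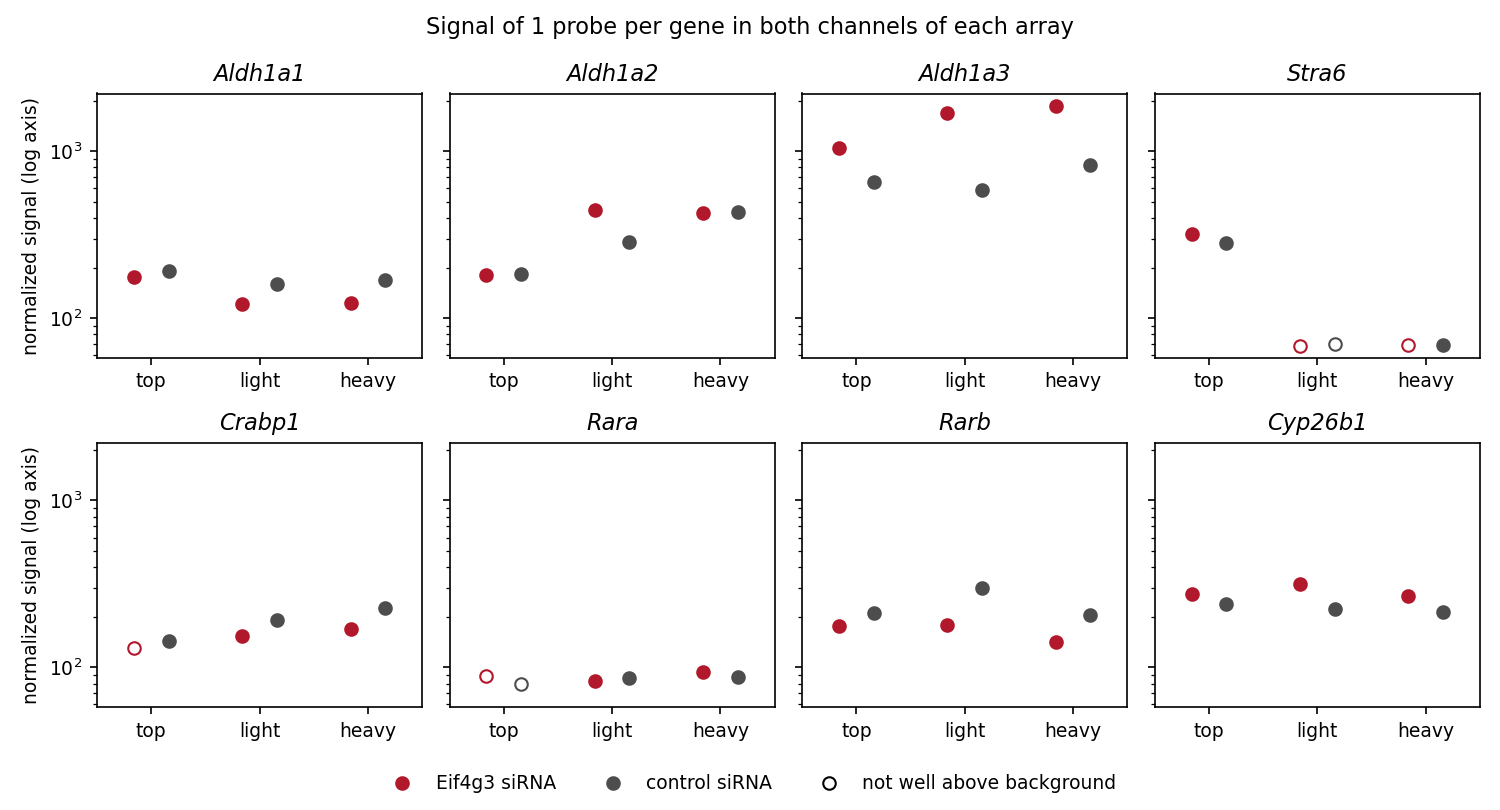
Normalized signal (log axis, array units after scaling between arrays) of 1 probe for each of 8 genes in the top, light and heavy fractions, with Eif4g3 siRNA in red at the left of each pair, control siRNA in grey at the right, and open points where the probe was not well above background. Aldh1a3 has the widest gaps, with 1694 against 589 in the light fraction, and Stra6 has both points filled only in the top fraction.

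Aldh1a2, the retinaldehyde dehydrogenase known from embryos and from dendritic cells and stroma of gut-draining lymph nodes, was higher after Eif4g3 siRNA on the light array and near 0 on the others. Its probe on chromosome 9 (71094684 to 71094743, plus strand) had signals of 181, 445 and 426 in the top, light and heavy fractions of Eif4g3 siRNA cells, against 185, 287 and 432 in control cells. The channels were apart in the light fraction and close to each other in the top and heavy fractions. The ratios were -0.03 ± 0.33, 0.63 ± 0.21 and -0.02 ± 0.20. In both cell pools the gene had more signal in heavy polysomes than in the top fraction, 2.35-fold after Eif4g3 siRNA and 2.33-fold in control cells. With median scaling the log2 values were 3.16 after Eif4g3 siRNA and 3.15 in control cells, so the direction held and the size did not. The log2 heavy over light signal was -0.06 after Eif4g3 siRNA and 0.59 in control cells, but 0.31 and 0.96 with median scaling, so here too only the gap between the siRNAs can be read.

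Aldh1a1, the third of these enzymes, went the other way. Its probe on chromosome 19 (20710371 to 20710430, plus strand) had 177, 122 and 124 in the top, light and heavy fractions after Eif4g3 siRNA, against 192, 161 and 170 in control cells. After normalization the siRNA channel was the lower one on every array, with ratios of -0.12 ± 0.34, -0.40 ± 0.22 and -0.46 ± 0.22. None was past 2-fold. The software's ratio gave larger values that lay closer together, -0.67, -0.65 and -0.62. The 3 enzymes of the same reaction thus had ratios from -0.40 to 1.52 in the light and from -0.46 to 1.19 in the heavy fraction.

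**Figure D2:**
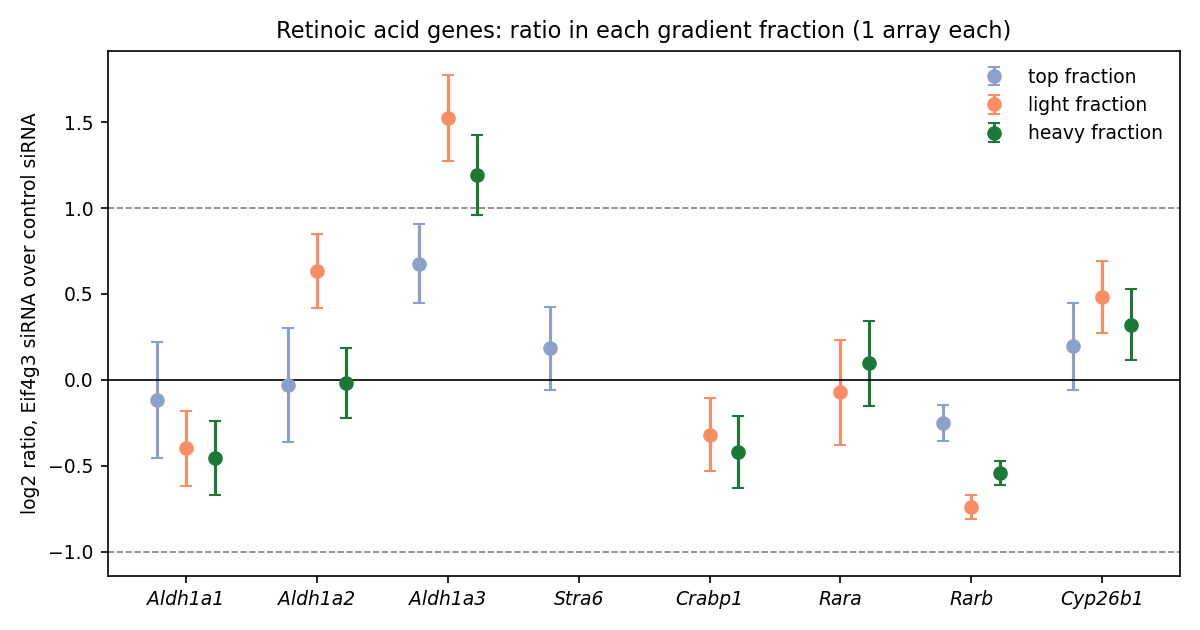
Log2 ratio (Eif4g3 siRNA to control siRNA) for the 8 genes with a measured probe, in the top, light and heavy fractions, 1 array each. Bars are the scanner software's spot error, for Rarb that of the mean over its spots. Dashed lines mark 2-fold, and fractions without a measured value are left out. Aldh1a3 is past 2-fold in the light (1.52) and heavy (1.19) fractions and no other gene is, while Rarb and Aldh1a1 lie below 0 in all 3.

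Stra6, the membrane receptor that takes up retinol from its carrier in blood, was measured in the top fraction only. Its probe on chromosome 9 maps across 612 bases of the genome (57950709 to 57951320, plus strand), more than its own length, as a probe over a splice junction does. The normalized signal was 321 in Eif4g3 siRNA and 282 in control cells in the top fraction, a ratio of 0.18 ± 0.24. In the light fraction it was 68.3 in Eif4g3 siRNA and 70.3 in control cells, and in the heavy fraction 69.5 in both. Neither channel of the light array was well above background, and on the heavy array only the control channel was. In control cells the log2 heavy over top signal was -2.02, and 5.20% of 14745 probes had a lower one. It was -0.73 with median scaling and -5.23 with the software's signals. These levels are relative to the signal distribution of each array.

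Of the cellular binding proteins, Crabp1 was lower after Eif4g3 siRNA in both polysome fractions and Crabp2 was not measured. The Crabp1 probe on chromosome 9 (54566522 to 54566581, plus strand) had 155 and 170 in the light and heavy fractions after Eif4g3 siRNA, against 193 and 227 in control cells. Its ratios were -0.32 ± 0.21 and -0.42 ± 0.21. In the top fraction the siRNA channel, at 131, was not well above background and the control channel, at 143, was. The log2 difference there, -0.13 ± 0.38, was smaller than its error. The Crabp2 probe on chromosome 3 (88034687 to 88034746, plus strand) was not well above background in any channel, with raw signals of 42.0 to 47.9 in the siRNA and 32.0 to 41.7 in the control channels.

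Rarb, a receptor that is itself switched on by retinoic acid, was lower after Eif4g3 siRNA on all 3 arrays, and it is the gene with the best spot precision because its measured probe was printed 10 times. The response of Rarb runs through a retinoic acid response element in its promoter, a direct repeat of a short half-site with a spacer of 5 bases, which is shown here because Rarb is the textbook readout of the pathway. The RefSeq window from 250 bases before to 50 after the start (GRCm38.p6, chr14:16575427-16575726, minus strand) holds such a repeat from 53 to 37 bases before the start, with the half-sites in capitals.

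Rarb: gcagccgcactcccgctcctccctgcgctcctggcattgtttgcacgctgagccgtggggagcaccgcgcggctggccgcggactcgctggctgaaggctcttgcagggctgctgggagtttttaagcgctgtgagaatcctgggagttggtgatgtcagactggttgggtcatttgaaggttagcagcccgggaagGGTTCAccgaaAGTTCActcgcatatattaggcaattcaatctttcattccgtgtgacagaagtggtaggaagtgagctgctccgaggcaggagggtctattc

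The search took any pair of half-sites, each either AGGTCA or one of the variants AGTTCA or else GGGTCA or else GGTTCA, in the same direction, on both strands, with 1, 2 or 5 bases between them. A spacer of 5 was found in 0.0974% of 32851 RefSeq promoters of this length, a spacer of 2 in 0.268% and a spacer of 1 in 0.222%. Of the genes described here 7 have promoters in that table, 14 in all, but Aldh1a3 and Crabp2 have none and were not searched. Among those 7, Rarb alone had a match. Among 38 further genes of the retinoid pathway with a promoter there, Cyp26a1, a retinoic acid hydroxylase, had one too, on the minus strand between 32 and 16 bases before its start on chromosome 19, and its site is shown for comparison.

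Cyp26a1: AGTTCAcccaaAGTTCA

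Cyp26a1 was not well above background on any array. A match says only that these letters are there. Single half-sites stood in 10.4% to 16.3% of promoters.

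The Rarb probe lies at 15224264 to 15224323 on chromosome 14, minus strand. Its signal over the spots that passed the quality flags averaged 179 ± 23, 180 ± 11 and 141 ± 10 (SD over 9, 10 and 10 spots) in the top, light and heavy fractions of Eif4g3 siRNA cells, against 213 ± 29, 300.1 ± 18.9 and 206 ± 12 in control cells. The normalized spots of the light array ran from 162 to 201 for Eif4g3 siRNA and from 267 to 319 for control. Those of the heavy array ran from 119 to 155 against 187 to 221, and those of the top array from 129 to 213 against 148 to 254. Both channels are read on the same spot, so the ratio of each spot is the value to read. Raw signals on the light array averaged 350 for Eif4g3 siRNA and 283 for control, so the direction there appears only after normalization. The log2 ratios were -0.25 ± 0.05, -0.74 ± 0.05 and -0.54 ± 0.08 in the top, light and heavy fractions (SD over spots), and every spot was below 0. These SDs are near the median of 0.07, 0.06 and 0.09 for all probes printed repeatedly on the 3 arrays. They describe spots of 1 hybridisation and not cultures. The light fraction had 1.01-fold the signal of the top after Eif4g3 siRNA and 1.42-fold in control cells. On the log2 scale this is 0.02 and 0.50, and with median scaling it was 1.47 after Eif4g3 siRNA and 1.96 in control cells.

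The order of the fractions for Rarb turned on the background offset. The heavy minus top difference was -0.29 ± 0.12, but an offset of 0 turned it to 0.10. The software's ratio turned it to 0.29, and there the top fraction had -0.91 ± 0.15, the light -0.97 ± 0.05 and the heavy -0.62 ± 0.06 (SD over spots). That Rarb was lower in every fraction held under both. Of 10657 genes measured on all 3 arrays, 47 others were at least as low as Rarb on each. The fibroblastic stromal markers had median ratios of -0.11, 0.01 and -0.43 in the top, light and heavy fractions, near the heavy values of Rarb, Aldh1a1 and Crabp1, and their part in these values was not tested. A smaller share of cells expressing a gene and less of its mRNA per cell cannot be told apart in these pools. A second Rarb probe, designed on the RAR-beta 4 isoform and mapped across 26709 bases (15341785 to 15368493), was not well above background on any array.

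**Figure D3:**
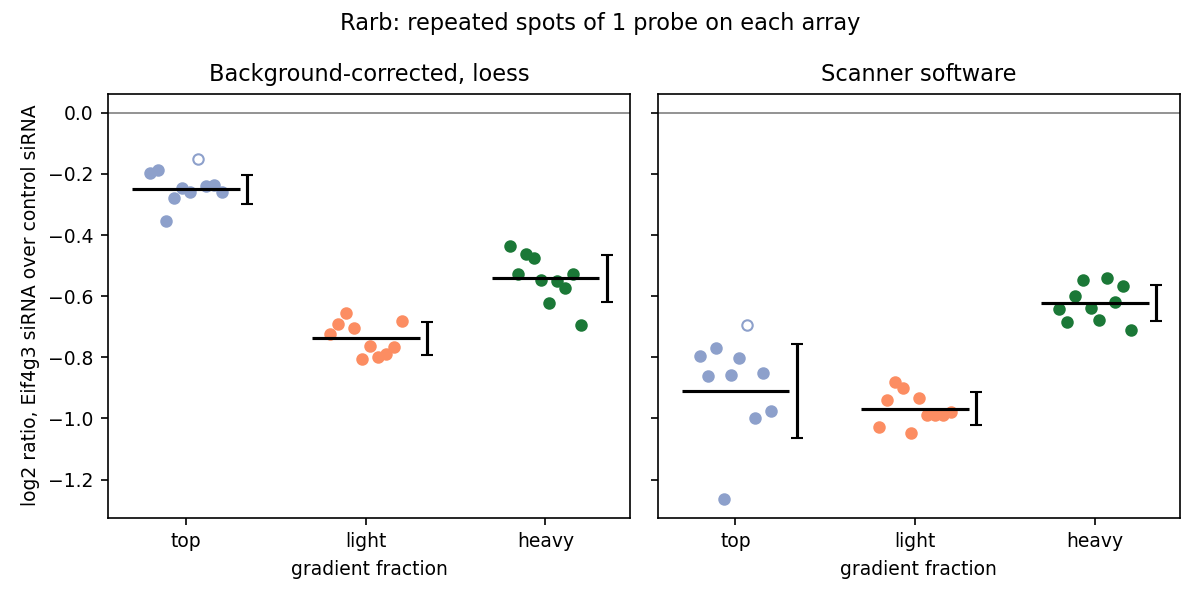
Log2 ratio (Eif4g3 siRNA to control siRNA) for each of 10 spots of the Rarb probe in the top, light and heavy fractions, after background correction with an offset and loess (left) and as the scanner software gives it (right). Lines are means, bars are SDs over spots, and the open point is a spot left out for an outlier flag. All spots lie below 0, and the top fraction has the smallest difference in the left panel (-0.25) but not in the right (-0.91).

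Rara, the broadly expressed receptor, had about the same signal in both channels. Its probe on chromosome 11 (98786635 to 98786694, plus strand) had 82.5 and 93.8 in the light and heavy fractions after Eif4g3 siRNA, against 86.7 and 87.7 in control cells, and was not well above background in the top fraction. The ratios were -0.07 ± 0.31 and 0.10 ± 0.25, smaller than their errors. Without loess they were -0.60 and 0.61.

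Cyp26b1, the enzyme that breaks retinoic acid down in many mesenchymal tissues, had somewhat more signal after Eif4g3 siRNA on all 3 arrays. Its probe on chromosome 6 (84537616 to 84537675, minus strand) had 274, 314 and 268 in the top, light and heavy fractions of Eif4g3 siRNA cells, against 240, 225 and 215 in control cells. The ratios were 0.19 ± 0.25, 0.48 ± 0.21 and 0.32 ± 0.21, none past 2-fold. The signal of Cyp26b1 differed little along the gradient, with log2 heavy over top of -0.03 after Eif4g3 siRNA and -0.16 in control cells, although median scaling gave 1.98 and 1.86.

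Read against the whole array, 1 of the 7 measured genes was higher at 2-fold in the light fraction, where 0.397% of 14094 genes were, and 1 of 7 in the heavy fraction, where 0.507% of 14402 were. In the top fraction 0 of 6 were, against 0.429% of 10943. Since Aldh1a3 was chosen for this, nothing is read from these shares. No member was lower at 2-fold, where the whole array had 0.265%, 0.291% and 0.306% in the top, light and heavy fractions. Without Aldh1a3 the members had medians of -0.03 over 5 genes, -0.19 over 6 and -0.22 over 6, beside medians of 0.002, 0.015 and -0.014 for all genes. For the heavy minus top difference 0 of 5 members were past 2-fold, against 0.811% of 10721 genes higher and 0.7% lower. For light minus top 0 of 5 were (0.318% of all genes higher and 0.739% lower), and for heavy minus light 0 of 7 (0.102% and 0.628%).

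A threshold of 1.5-fold took in Aldh1a2 and Rarb beside Aldh1a3. In the light fraction Aldh1a3 and Aldh1a2 were that much higher, as were 3.48% of all genes, and Rarb was that much lower, as were 2.63%. In the top fraction Aldh1a3 alone of the 6 was past it, where 2.76% of genes were higher and 2.52% lower, and in the heavy fraction Aldh1a3 alone of the 7, where 3.52% were higher and 3.71% lower. For light minus top, Aldh1a3 (0.85) and Aldh1a2 (0.66) were past it upwards, with 4.74% of all genes higher and 4.23% lower. By the software's ratio neither gap was past it. There the top and light values were 1.09 and 1.60 for Aldh1a3 and 0.18 and 0.69 for Aldh1a2. For heavy minus light, Aldh1a2 (-0.65) was past it downwards, with 2.68% higher and 5.84% lower. For heavy minus top 0 of 5 members were, against 7.37% higher and 6.03% lower.

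**Figure D4:**
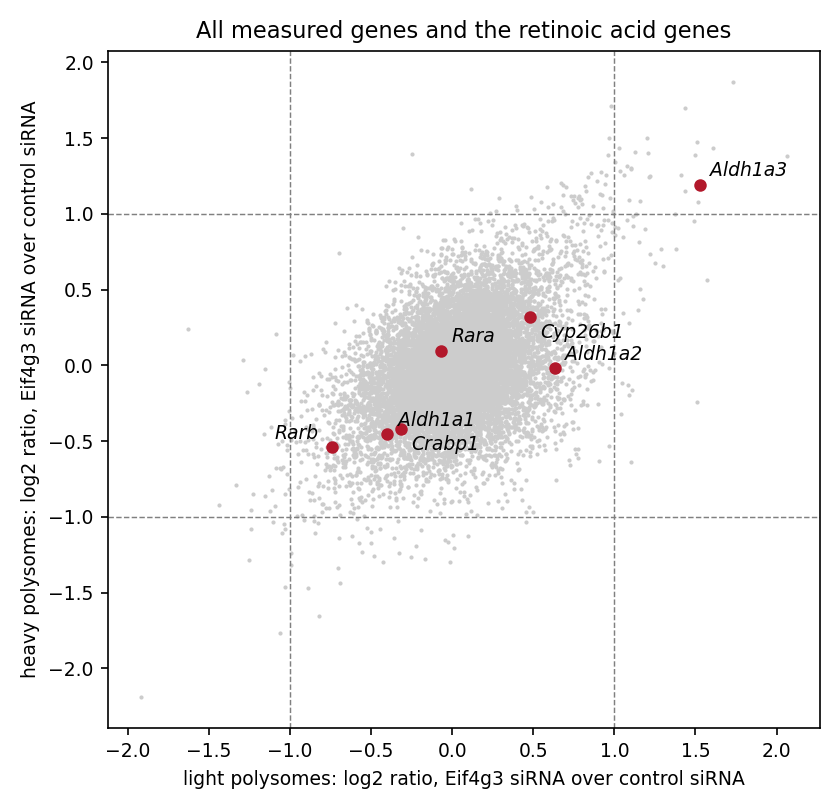
Log2 ratios (Eif4g3 siRNA to control siRNA) in light (horizontal) and heavy polysomes (vertical) for 13695 genes measured on both arrays (grey) and for 7 retinoic acid genes (red), with dashed lines at 2-fold. Aldh1a3 is 1 of 26 genes higher at 2-fold in both, Aldh1a2 and Cyp26b1 lie to the right, and Rarb, Aldh1a1 and Crabp1 lie below 0 on both axes.

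The genes whose 3 ratios came nearest to those of Aldh1a3, by Euclidean distance over the 3 arrays, were Fhl1, Ywhah, Rtp4, Eps15 and Gbp3. Fhl1, a LIM domain protein gene, was at a distance of 0.24, with 0.90 ± 0.22, 1.44 ± 0.24 and 1.15 ± 0.23 in the top, light and heavy fractions. Ywhah, a 14-3-3 protein gene, was at 0.26 with 0.65, 1.61 and 1.44, and the interferon-induced Rtp4 at 0.29 with 0.68, 1.51 and 1.48. Eps15, of endocytosis, was at 0.32 with 0.64, 1.21 and 1.25, and Gbp3, an interferon-induced GTPase gene, at 0.40 with 0.56, 1.16 and 1.08. All but Eps15, which has 2, were measured by 1 probe. Of the 10657 genes measured on all 3 arrays, 1 other was at least as high as Aldh1a3 on each, the phosphatase gene Dusp2 (1.76, 1.73 and 1.87), named after its values were seen.

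Of the 51 genes of a wider retinoid pathway list on the array, 25, 36 and 35 were measured in the top, light and heavy fractions, and 0 were past 2-fold in either direction in any of them. Over all genes 0.695%, 0.688% and 0.812% were, so nothing about the list is read from that count. Its median ratios were -0.02, 0.04 and -0.05, beside 0.002, 0.015 and -0.014 for all genes. Genes of enzymes that act on retinol and retinal gave mixed values. Rdh10, the main enzyme that makes retinal in embryos, had 193, 254 and 286 in the top, light and heavy fractions after Eif4g3 siRNA. Control cells had 183, 181 and 176 (1 probe in the top, the mean of 2 in polysomes). The ratios of Rdh10 were 0.08 ± 0.31, 0.46 ± 0.15 and 0.63 ± 0.15, the highest of the list in the heavy fraction. Rdh14 was the lowest of the list in the top (-0.64 ± 0.21) and light (-0.42 ± 0.21) fractions and had -0.07 ± 0.20 in the heavy. Dhrs3, which turns retinal back into retinol and is induced by retinoic acid, had 0.34 ± 0.17, 0.28 ± 0.15 and 0.30 ± 0.15.

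Aox1, an aldehyde oxidase gene, was the highest of the list in the light fraction (0.48 ± 0.21) but had -0.57 ± 0.21 in the heavy, a heavy minus light difference of -1.05 ± 0.30. Among nuclear receptors, Rarg had -0.02 ± 0.36, -0.19 ± 0.20 and -0.05 ± 0.17 in the top, light and heavy fractions. Of the genes long used as targets of retinoic acid, 7 were measured in the top and 8 in each polysome fraction, with medians of -0.01, 0.02 and -0.07. Of these 1 array name is a synonym of several current genes, and without that name (left out after seeing the data) they were 0.11, 0.04 and -0.11. Tgm2, the tissue transglutaminase, had the highest top value of the list (0.59 ± 0.21), from 1 probe. The mean ratios of 3 probes were 0.27 ± 0.14 and -0.44 ± 0.12 in the light and heavy fractions. The top value and these means thus rest on different sets of probes. Mean signals in the heavy fraction were 2930 after Eif4g3 siRNA and 2758 in control cells, so the 3 probes differed in direction there. The errors leave out that spread. On the probe measured in the top fraction, light minus top was -0.03 ± 0.30 and heavy minus top -0.48 ± 0.30.

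Of 16 other aldehyde dehydrogenases on the array, 10, 13 and 15 were measured in the top, light and heavy fractions, with medians of 0.05, 0.01 and -0.29. As in the wider list, 0 were past 2-fold, and nothing is read from that. In the heavy fraction 13 of 15 were below 0, where 51.6% of all 14402 genes were. The lowest there was Aldh18a1, of proline synthesis, with 183 after Eif4g3 siRNA against 339 in control cells (-0.89 ± 0.23), and the highest Aldh5a1, of GABA breakdown, with 0.29 ± 0.21. Aldh5a1 was also the highest in the top fraction (0.48 ± 0.21). Aldh4a1, of proline breakdown, was the lowest in the top and light fractions (-0.18 ± 0.21 and -0.50 ± 0.21), and Aldh16a1 the highest in the light (0.47 ± 0.15).

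**Figure D5:**
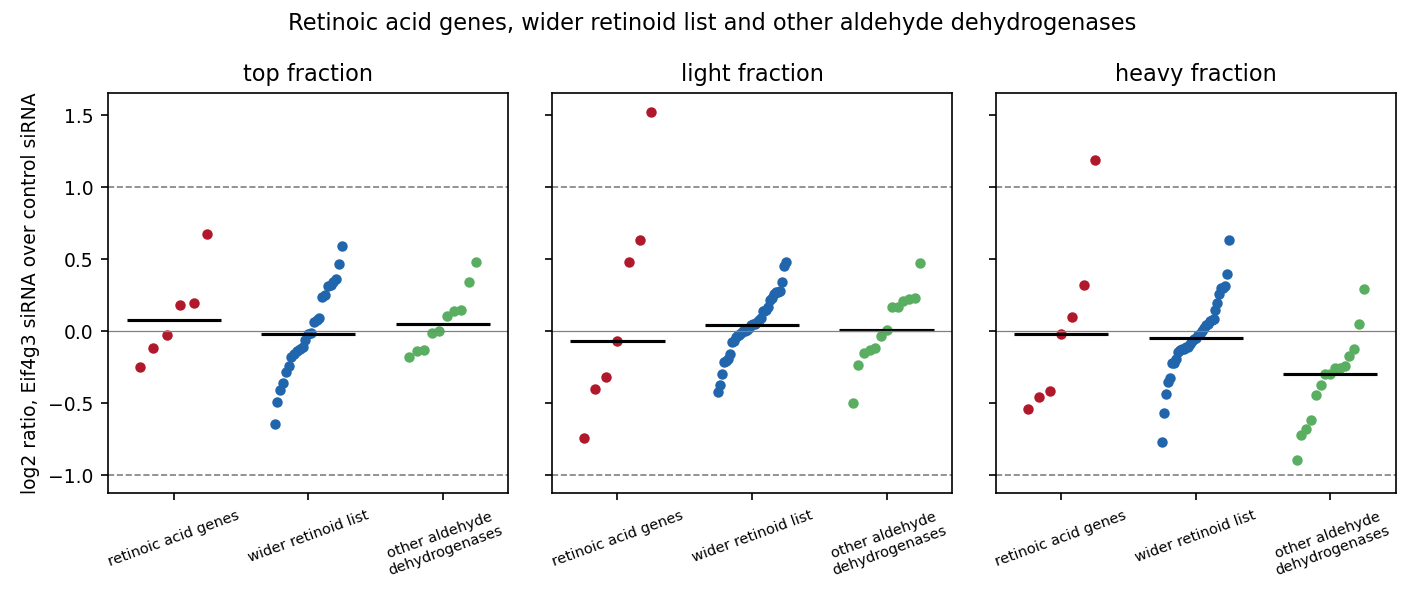
Log2 ratio (Eif4g3 siRNA to control siRNA) for each measured gene of the retinoic acid genes (red), the wider retinoid list (blue) and the other aldehyde dehydrogenases (green) in the top, light and heavy fractions, sorted within each list, with medians as lines and 2-fold as dashes. The red point above the upper dashes in the light and heavy panels is Aldh1a3, and the green median in the heavy panel is -0.29.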

How the data were processed

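Members and gene lists were chosen with earlier results of these data known. Agilent Feature Extraction 10.5.1.1 wrote the deposited linear intensity of every spot in both channels, per the file headers. Its log10 ratio and the error score of that ratio, per the file headers, come from a model of single spots. The authors' deposited table of log2 ratios equalled the log2 of red over green processed signal to within 2.8e-06, so its direction and scale are known. Its column medians were -0.09, -0.01 and 0.22 for the top, light and heavy arrays, and any centring beyond the software's dye normalization stays unknown.

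Mean signals were corrected for local background by normexp with an offset of 50 and normalized by loess within each array (limma 3.58.1, R 4.3.3), with control spots at weight 0. The offset draws ratios of dim spots towards 0, with slopes on the software's ratios of 0.571, 0.718 and 0.721 for the top, light and heavy arrays. Spots with outlier flags were left out (220, 170 and 183), spots of a probe averaged, and measured probes of a gene averaged. No spot was saturated. Signals set across arrays were scaled by Aquantile and include the offset. The probes' sequences and a genome were not used here. All 9 members matched a current symbol, and promoters are RefSeq's (GRCm38.p6). Genes named beyond the members are the highest and lowest of each list per array, those past 2-fold, and the 5 nearest to Aldh1a3; Dhrs3 and Rarg were added for their roles after values were seen. Some genes that this rule names are not reported here. The steps were run on simulated arrays made from the control channel, which lacked the raw gap between channels of the light and heavy arrays. Nothing about the ratios here is read from that run. No test was possible with 1 array per fraction, and the precision rests on these 3 arrays.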

Additional observations from a re-analysis of the deposited data

Results flagged for a closer look

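Aldh1a2 and Rara had log2 ratios of opposite sign in different fractions. For Aldh1a2 the light ratio of 0.63 exceeded the top ratio of -0.03 by 0.66 ± 0.39 and the heavy ratio of -0.02 stood -0.65 ± 0.30 from the light one. The top and heavy ratios were smaller than their errors, and their sign changed with the software's ratio (0.18 and 0.02). For Rara the heavy ratio of 0.10 and the light ratio of -0.07 differed by 0.17 ± 0.39. With 1 array per fraction these differences were not tested.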

How the results depend on the processing

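No paired analysis was possible because each fraction is 1 array with 1 pool of cells per siRNA. Ratios and heavy minus top differences of the members were recomputed under 8 alternatives, 195 values in all. Of these 168 moved by less than their spot error and 27 by more, and 13 changed sign, none of them past 2-fold. Many could hardly move, since each measured member rests on 1 measured probe and all but Rarb on 1 spot. Thus the median over probes, outlier spots kept and probes measured on all 3 arrays left 25 of 25, 25 of 25 and 20 of 20 within the error. The software's ratio left 14 of 25 within it, moved 11 by more and changed 7 signs. With an offset of 0 these were 19, 6 and 3. For Aldh1a3 the top ratio was 0.94 without an offset and 1.09 in the software's values, where 1 member thus passed 2-fold. With dim probes included Aldh1a3 had 0.34, 0.78 and 0.46 in the top, light and heavy fractions, and 0 members passed 2-fold, since the dim second probe enters the mean. That probe alone gave -0.0014, 0.0439 and -0.28, with errors of 2.04, 2.01 and 1.22. Without loess (log ratios centred on measured probes), 0 members passed 2-fold in the heavy fraction (Aldh1a3 0.98); centring on all probes would shift the median of measured probes by 0.03, 0.63 and -0.75.

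Of all genes, 76, 97 and 117 passed 2-fold in the top, light and heavy fractions and 162 in heavy minus top. An offset of 0 gave 191, 194, 225 and 337, the software's ratio 297, 304, 355 and 456, and a threshold of 1.5-fold 578, 861, 1042 and 1436. Without loess there were 181 in the light (84.5% higher, against 57.7%), 326 in the heavy and 273 in heavy minus top (37.0% higher, against 53.7%). The software's ratio had 50.8% higher in the top (against 61.8%), and 66.0% in heavy minus top. Signals across fractions depend on the scaling: with median scaling the heavy over top signal of Rarb was 1.25 in the siRNA and 1.54 in the control channel, against -0.33 and -0.04. The dim signals of the top array limit what it can show.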
